A study of Caenorhabditis elegans with 11 samples.

Results

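The str, srj and srd genes of Caenorhabditis elegans were measured in larvae of 2 strains that differ in signaling by DBL-1, a secreted ligand of the TGFβ family that sets body size. They were taken as every gene with the symbol str, srj or srd and a number that had a probe set of its own on the array, and a gene with several such probe sets was read from that of highest mean over the 11 arrays. This gave 274 genes of the 17118 with a probe set of their own, of which 177 were str, 40 srj and 57 srd genes. All 274 carried the same symbol in the current reference annotation (WBcel235, RefSeq), where 268 are protein-coding and 6 are pseudogenes. The annotation lists 346 genes of the 3 families, and 72 of them had no probe set of their own.

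These genes encode chemoreceptors, serpentine G protein-coupled receptors that sit in the cilia of sensory neurons and bind odors, tastes and pheromones. The str, srj and srd families belong to the Str superfamily together with srh and sri. The worm has a very large number of such receptor genes for a small number of sensory neurons, so that a neuron carries many receptors and many receptors are found in only a few cells of the animal. Most members have no known ligand. Receptors reach the cilium with the help of the chaperone ODR-4, and signal through G proteins to channels such as TAX-2/TAX-4 and OSM-9/OCR-2.

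Strain BW1940 carries the integrated transgene ctIs40, which adds copies of dbl-1 by way of a genomic clone, with a sur-5::gfp marker. Strain LT186 carries the allele sma-6(wk7), in which an early stop codon interrupts the type I receptor for DBL-1. The labels give the genotypes only as dbl-1 and sma 6, and the strain names are those of the methods. Both strains were synchronized by hatching without food, fed on E. coli OP50 and collected as L4 larvae by visual scoring, and the arrays, 5 for BW1940 and 6 for LT186, are biological replicates by their labels. Wild-type animals were not among the arrays, so a difference is one between the strains and cannot be assigned to either. BW1940 is 1 integrated line. DBL-1 signaling cannot be told apart here from other differences between the strains, such as the sur-5::gfp marker.

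RNA came from whole animals, in which a receptor made by a few neurons is diluted by all other tissues, and fewer cells of a type cannot be told apart from less RNA per cell. Values are expression intensities on a linear scale that the authors scaled to 100 on every array. BW1940 arrays had medians of 37.0 to 39.96 over all probe sets, and LT186 arrays of 34.2 to 38.8. The brighter sma-6 probe set averaged 102 ± 19.6 in BW1940 and 31.3 ± 2.79 in LT186 (means ± SD here and below are over 5 BW1940 and 6 LT186 arrays), and was lower on every LT186 array than on any BW1940 array. The other sma-6 probe set averaged 77.7 ± 32.7 in BW1940 and 15.7 ± 2.99 in LT186. The dbl-1 probe sets averaged 79.4 ± 21.5 and 47.0 ± 16.2 in BW1940, against 57.3 ± 14.1 and 22.1 ± 4.74 in LT186, and the strains overlapped in both. LT186 replicates 2 and 4 stood apart from the other arrays in their sperm transcripts. The mean log2 value of 23 major sperm protein (msp) genes was 7.03 and 6.49 on these arrays, and between 8.96 and 10.94 on the other 9.

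Most of the receptor genes gave little signal. The mean over the 11 arrays was under 10, here called near the floor, for 172 of the 274 genes, or 62.8% (exact binomial 95% interval 56.8% to 68.5%, for counting error only), against 4102 of all 17118 genes, or 24%. The share was 66.7% in str (118 of 177 genes, interval 59.2% to 73.6%), 60% in srj (24 of 40, 43.3% to 75.1%) and 52.6% in srd (30 of 57, 39.0% to 66%). The intervals of the 3 families overlap, so no order of the families is given. In the other families of the superfamily the share was 59.5% of 232 srh genes and 68.3% of 60 sri genes, and among 695 genes of further chemoreceptor families it was 65.8%. A low value can come from a weak probe set as well as from little RNA, and these sources cannot be told apart here.

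The median of the gene means was 6.36 for str, 8.87 for srj and 8.77 for srd, against 40.1 for all genes. A total of 105 receptor genes stayed under 10 on every array (76 str, 11 srj and 18 srd), and 16 of them were below 0 on every array (11 str and 5 srd). At the other end, 56 genes (20.4%) reached 10 on all 11 arrays, against 59.2% of all genes, and 26 had a mean of 30 or more (19 str, 4 srj and 3 srd).

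**Figure D1:**
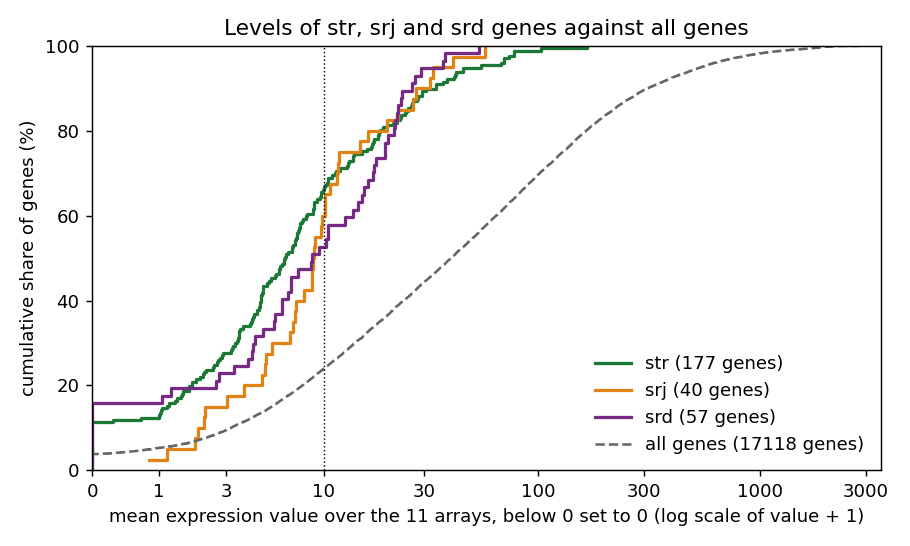
Cumulative share of genes (vertical axis, %) against the mean expression value over the 11 arrays (horizontal axis, log scale of the value plus 1, values below 0 drawn at 0), for str, srj, srd and all genes. The 3 receptor families reach 52.6% to 66.7% at the dotted line at 10, where the curve of all genes stands at 24%.

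The genes lie mostly on chromosome V in the reference annotation. Of the 274 genes, 204 (74.5%) are there, against 25.3% of all genes measured. The share on V was 141 of 177 for str, 38 of 40 for srj and 25 of 57 for srd. The srd family is the most spread out, with 14 genes on X, 7 on IV and 5 each on II and III. A further 26 str genes lie on IV. Receptor genes often adjoin one another, and 116 of the 274 have another of the 274 as the next gene. A total of 179 have another of them within 5 genes. Family genes without a probe set of their own were not counted as neighbors. The share near the floor was 63.8% for the 116 genes beside another of the 274 and 62.0% for the other 158. For str genes it was 68.1% on V (96 of 141) and 57.7% on IV (15 of 26).

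To ask whether the receptors differed between the strains, 10 was added to every value, values below 0 were set to 0 first, and log2 values were compared with limma over all 18801 probe sets that reached 10 on at least 2 arrays. Log2 fold changes are BW1940 over LT186. Of the receptor genes, 147 passed this filter, 86 of 177 str, 26 of 40 srj and 35 of 57 srd genes. The other 127 were left out by the filter, among them 22 that reached 10 on exactly 1 array and lay just outside it. Another 22 reached 10 on exactly 2 arrays and lay just inside. The tested genes are thus the brighter ones, and 11 passed through BW1940 arrays only and 2 through LT186 arrays only.

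After adjustment by the method of Benjamini and Hochberg over all probe sets, str-9 was higher in BW1940 and no receptor gene was lower (limma, threshold 0.05). Over all probe sets tested 0.686% were called higher and 0.33% lower, or 1.02% in all, so that 1 call among 147 genes (0.680%) is near the background. At an unadjusted p under 0.05, 11 receptor genes (7.48%) were higher in BW1940 and 1 (0.680%) was lower, against 11.7% and 5.03% of all probe sets. The groups of arrays did not overlap for str-9 alone, against 2.95% of all probe sets with all BW1940 values higher and 1.47% with all lower. Without the 13 genes that passed the filter through the arrays of 1 strain, the counts at an unadjusted p under 0.05 were 10 higher and 0 lower among 134 genes. The share of all probe sets after the same removal was not taken, so these counts have no background beside them.

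**Figure D2:**
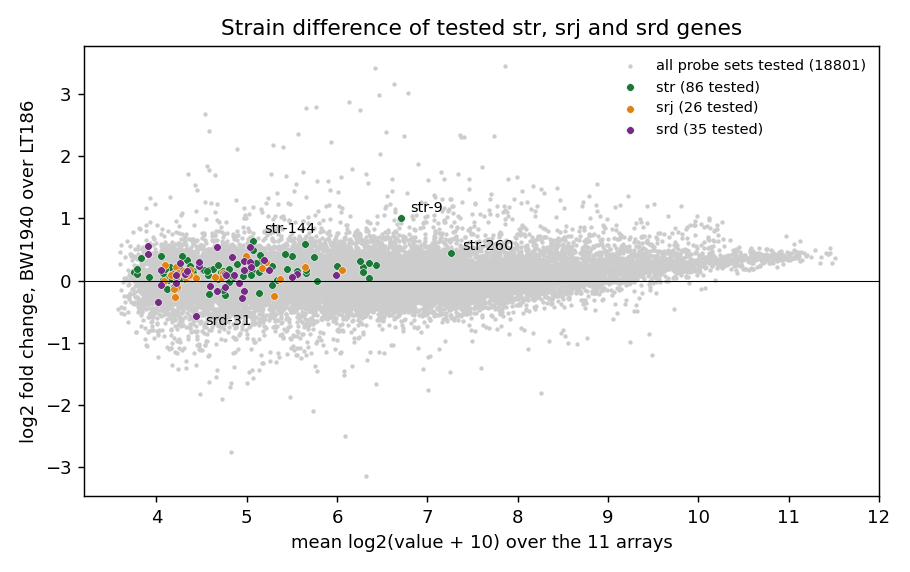
Log2 fold change, BW1940 over LT186 (vertical axis), against the mean log2(value + 10) over the 11 arrays (horizontal axis), for all 18801 probe sets tested (gray) and the tested str, srj and srd genes (colored). str-9 stands at 1.0, and the other 146 genes lie between -0.57 and 0.64.

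str-9 lies on chromosome V between str-8 and haf-3, with the reference locus tag CELE_F57A10.1. Its values on the BW1940 arrays were 147, 139, 124.1, 115 and 206, and on the LT186 arrays 59.8, 57.3, 64.3, 68.9, 78.3 and 72.2. Every BW1940 array was above every LT186 array, and the lowest BW1940 value, 115, was clear of the highest LT186 value, 78.3. The means were 146 ± 35.6 in BW1940 and 66.8 ± 7.88 in LT186, a ratio of 2.19. The log2 fold change was 1.0 ± 0.15 (SE), with an adjusted p of 0.00936 by limma and p = 0.00216 by the exact permutation test over arrays (two-sided), the smallest p that 5 against 6 arrays allow. LT186 replicates 2 and 4, low in sperm transcripts, gave 57.3 and 68.9 for str-9, within the range of the other LT186 arrays.

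The call of str-9 held with every array left out in turn, with adjusted p by limma between 0.0113 and 0.0295 and a log2 fold change between 0.88 and 1.08. It did not hold in a fit with the replicate number as a block (limma adjusted p 0.209), described below. The neighboring str-8, chosen after its values were seen, had a probe set of its own near the floor, at 4.53 ± 1.19 in BW1940 and 4.19 ± 1.5 in LT186, and was not tested. A probe set that the annotation assigns to both str-8 and str-9 read 10.7 ± 2.39 in BW1940 and 8.84 ± 2.38 in LT186 (log2 fold change 0.14, limma adjusted p 0.664). The difference of str-9 thus rests on 1 probe set.

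Among the other str genes, 5 were higher in BW1940 at an unadjusted p under 0.05 and did not pass the adjusted threshold. They were str-124, str-61, str-56, str-163 and str-97, named after their values were seen. str-124, which adjoins str-123 on the X chromosome, gave 49.6, 54.6, 54.5, 31.5 and 82.0 in BW1940 and 30.3, 34.9, 22.2, 32.8, 39.0 and 33.1 in LT186. BW1940 replicate 4 fell among the LT186 arrays, and the other 4 were above them all. Its means were 54.5 ± 18.1 in BW1940 and 32.0 ± 5.61 in LT186 (log2 fold change 0.58, limma adjusted p 0.158).

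str-56 had means of 41.4 in BW1940 and 27.9 in LT186, and str-61 of 31.7 and 21.3 in the same order of strains. str-97 had means of 28.7 in BW1940 and 21.6 in LT186, and str-163, close to the floor, of 13 and 8.26 in the same order. All overlapped between the strains. Among the 11 genes higher at an unadjusted p under 0.05, BW1940 replicate 5 was the highest BW1940 array for 9 and BW1940 replicate 4 the lowest for 7.

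Of the srd genes, 4 were higher in BW1940 and 1 was lower at an unadjusted p under 0.05, and none passed the adjusted threshold. srd-11, on chromosome V, gave 38.7, 28.6, 27.3, 20.6 and 38.9 in BW1940 and 19.7, 20.7, 18.3, 17.7, 19.6 and 10.9 in LT186. The strains met only where the lowest BW1940 array (20.6) lay just under the highest LT186 array (20.7). The means were 30.8 ± 7.90 in BW1940 and 17.8 ± 3.55 in LT186, with a log2 fold change of 0.54 ± 0.15 (SE), an adjusted p of 0.126 by limma and p = 0.00433 by the exact permutation test.

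srd-66 was near the floor in both strains. It read 10.3, 7.83, 7.28, 3.18 and 16.4 in BW1940 and 3.68, 2.19, 1.65, 5.02, 1.63 and 1.88 in LT186, so that only 2 BW1940 arrays reached 10. The means were 8.98 ± 4.84 in BW1940 and 2.68 ± 1.38 in LT186 (log2 fold change 0.55 on the log2(value + 10) scale, limma adjusted p 0.136, exact permutation p = 0.0108). The offset of 10 exceeds all but 2 of these values, and the fold change depends on it.

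srd-70, srd-9 and srd-13 were named after their values were seen. srd-70 gave 24.1, 20.2, 19.8, 12.7 and 32.9 in BW1940 and 8.95, 15.3, 8.34, 10.4, 15.3 and 12 in LT186 (means 21.9 ± 7.38 and 11.7 ± 3.06 in the same order, log2 fold change 0.54, limma adjusted p 0.149). Here too BW1940 replicate 4 was the only BW1940 array among the LT186 values. srd-9 averaged 32.5 in BW1940 and 23.1 in LT186. srd-13, the only receptor gene lower in BW1940 at this threshold, averaged 4.35 in BW1940 and 8.40 in LT186 (log2 fold change -0.34, limma adjusted p 0.286), and its only values of 10 or more were 2 LT186 arrays, at 12.4 and 12.9.

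The srj family had 1 gene past an unadjusted p of 0.05. srj-50, which lies between srw-2 and srj-45 on chromosome V, gave 16.5, 26.2, 33.4, 37.1 and 25.3 in BW1940 and 23.6, 12.5, 15.2, 15.1, 22.8 and 21.5 in LT186. BW1940 replicate 1 lay within the LT186 values and the other BW1940 arrays above them. The means were 27.7 ± 7.98 in BW1940 and 18.4 ± 4.73 in LT186 (log2 fold change 0.40, limma adjusted p 0.272, exact permutation p = 0.0411).

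**Figure D3:**
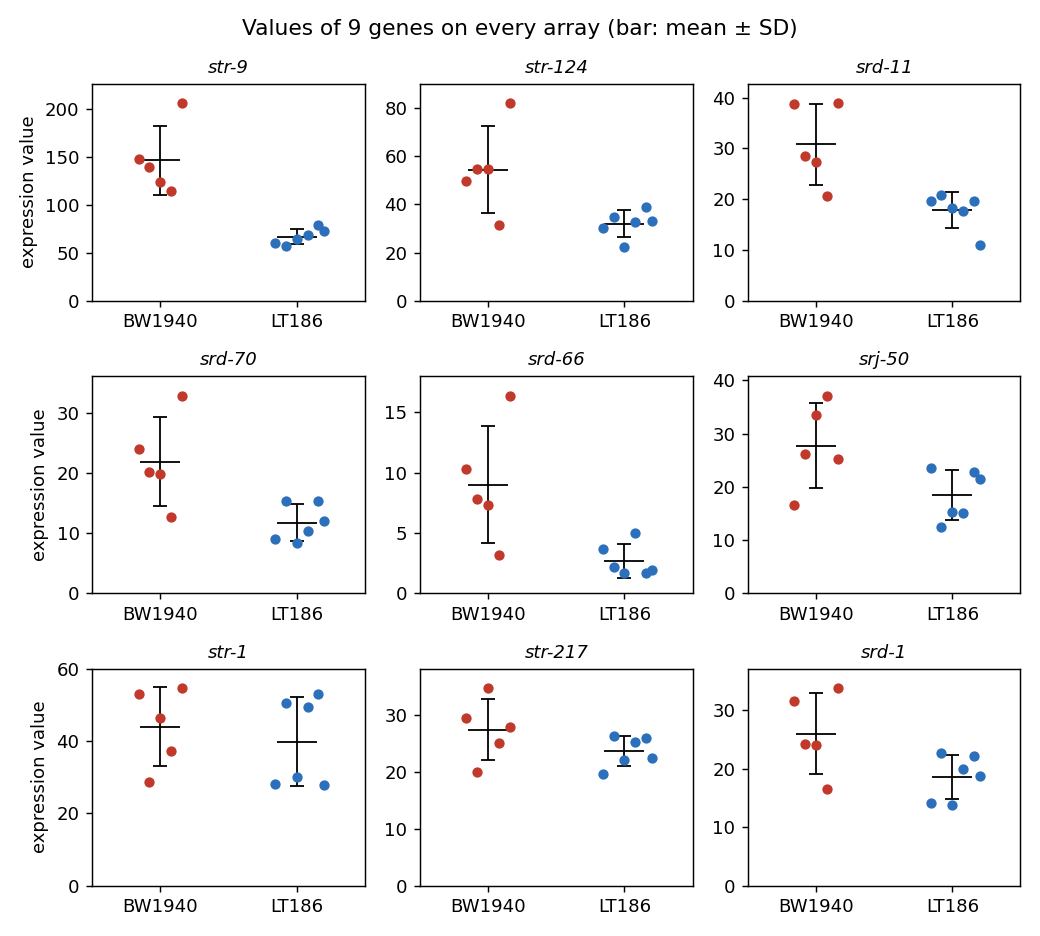
Expression values (vertical axes, linear scale from 0) of 9 receptor genes on every array, BW1940 left and LT186 right in each panel, with mean ± SD over 5 and 6 arrays. str-9 shows no overlap, with BW1940 from 115 to 206 and LT186 from 57.3 to 78.3, and the other 8 genes overlap.

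Several members have known neurons, and none of these passed the adjusted threshold. str-1, a receptor gene of the AWB neurons that sense repellent odors, gave 53.2, 28.6, 46.6, 37.3 and 54.7 in BW1940 and 28.1, 50.6, 30.01, 49.5, 53.1 and 28 in LT186. Each strain held high and low arrays over much the same span, with means of 44.1 ± 11 in BW1940 and 39.9 ± 12.3 in LT186 (log2 fold change 0.13, limma adjusted p 0.835). str-2, which is expressed in 1 of the left and right AWC odor neurons at a time, averaged 12.2 ± 7.70 in BW1940 and 7.96 ± 3.71 in LT186 (log2 fold change 0.27, limma adjusted p 0.624). Its highest value was 24.6 on BW1940 replicate 1, and the next was 13.7 on BW1940 replicate 5.

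srd-1, a marker of the ASI neurons that also secrete the dauer TGFβ ligand, gave 31.6, 24.1, 24.1, 16.4 and 33.7 in BW1940 and 14.1, 22.6, 13.8, 19.9, 22.1 and 18.7 in LT186. As for srd-70, BW1940 replicate 4 lay among the LT186 arrays and the other 4 above them. The means were 26.0 ± 6.88 in BW1940 and 18.6 ± 3.82 in LT186 (log2 fold change 0.32, limma adjusted p 0.316, exact permutation p = 0.0606). str-3, another receptor gene of ASI, was at the floor, with 0.511 ± 1.67 in BW1940 and 2.14 ± 3.99 in LT186, and was not tested.

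str-217, expressed in the ADL neurons and needed for the response to the repellent DEET, averaged 27.4 ± 5.42 in BW1940 and 23.6 ± 2.64 in LT186 (log2 fold change 0.15, limma adjusted p 0.624). Its spread was small, with all 11 values between 19.7 and 34.7. str-44, a receptor gene of the AWA neurons for food odors, averaged 10.5 ± 2.31 in BW1940 and 7.65 ± 1.25 in LT186 (log2 fold change 0.22, limma adjusted p 0.343), and passed the filter only through BW1940 arrays. odr-10, the diacetyl receptor of AWA, whose symbol lies outside the rule used here, averaged 5.37 ± 3.63 in BW1940 and 1.26 ± 5.64 in LT186 (log2 fold change 0.33, limma adjusted p 0.511).

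The brightest probe set of the str family after str-260 and str-9 was that of str-31, at 86.2 ± 16.5 in BW1940 and 70.8 ± 15.2 in LT186 (log2 fold change 0.25). The brightest of srj were srj-14, at 62.2 ± 16.3 in BW1940 and 53.4 ± 9.52 in LT186, and srj-7, at 46.2 ± 17.0 in BW1940 and 36.8 ± 3.82 in LT186. For srd they were srd-2 (56.2 ± 10.7 in BW1940 and 52.2 ± 9.25 in LT186), srd-33 (39.2 ± 7.10 and 36.0 ± 7.41 in the same order) and srd-53 (38.0 ± 15.8 and 35.7 ± 11.1). None of these 6 genes passed a p of 0.05 before adjustment. The ranking is of probe sets, since the brightness of a probe set also depends on its probes.

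Small positive differences were frequent across the families. The log2 fold change was above 0 for 123 of the 147 tested genes (83.7%), against 60.7% of all probe sets tested. The filter itself leans these counts toward BW1940, since 11 genes entered through its arrays only and 2 through LT186 arrays only. Among the 134 genes that reached 10 in both strains, 112 were above 0, with a median of 0.13. No such removal was made for the background of 60.7%. By family the log2 fold change was above 0 for 76 of 86 str, 22 of 26 srj and 25 of 35 srd genes. In other receptor families it was above 0 for 85.6% of srh, 89.3% of sri and 76.6% of the further chemoreceptor genes tested. Such differences were thus not particular to str, srj and srd. The median log2 fold change was 0.15 over all 147 genes, 0.16 for str, 0.08 for srj and 0.11 for srd, against 0.08 over all probe sets. Quantile normalization of the arrays, which moved the median of all probe sets to 0.0026, left medians of 0.08 for str and 0.05 for srd and turned that of srj to -0.0067. With it, 97 of the 147 genes (66%) were above 0, against 50.4% of all probe sets. Since genes of a family vary together over arrays and the list was drawn with earlier results of these data known, no test was made of these counts.

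Markers of other tissues were compared in the same fit. All 6 intestinal markers had a log2 fold change above 0 (median 0.54, 5 higher at an unadjusted p under 0.05), and their mean log2 value was 9.13 to 9.43 on the BW1940 arrays and 8.42 to 9.03 on the LT186 arrays. All 5 body muscle markers were above 0 (median 0.27, 2 higher), and 4 of 6 hypodermal markers (median 0.28, 0 higher). Of 6 germ line markers none was above 0 (median -0.35, 3 lower), with a mean log2 value of 7.96 to 8.52 on the BW1940 arrays and 8.25 to 8.87 on the LT186 arrays. The 23 msp genes were all above 0 (median 0.74, 0 higher at an unadjusted p under 0.05). This sign rests on LT186 replicates 2 and 4, where their mean log2 value was 7.03 and 6.49. On the other LT186 arrays it was 10.45 to 10.94, above the BW1940 mean of 10.1. None of the markers in these lists passed the adjusted threshold. The part of tissue makeup in the differences of the receptor genes was not tested.

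The other receptor families were measured in the same way. The median log2 fold change was 0.18 for srh (125 tested, 20 or 16% higher and 0 lower at an unadjusted p under 0.05), 0.18 for sri (28 tested, 6 or 21.4% higher and 1 lower) and 0.12 for the further families (354 tested, 33 or 9.32% higher and 0 lower, of which 2 passed the adjusted threshold). The share higher was 7.48% for str, srj and srd and 11.7% for all probe sets, and whether the families differ was not tested.

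The machinery of the sensory neurons was measured beside the receptors. Of 23 genes for chemoreceptor signaling and traffic, 16 were tested, and 4 were higher and 1 lower in BW1940 at an unadjusted p under 0.05, none past the adjusted threshold. osm-9, a TRPV channel subunit, averaged 30.8 ± 7.39 in BW1940 and 18 ± 4.68 in LT186 (log2 fold change 0.54, limma adjusted p 0.136). gpa-1, a Gα subunit, averaged 5.55 ± 4.25 in BW1940 and 13.9 ± 3.98 in LT186 (log2 fold change -0.65, limma adjusted p 0.142). The other 3 were tax-4, tax-6 and ocr-1, and these 5 were named after their values were seen. odr-4, the chaperone of receptor traffic, averaged 286 ± 34.7 in BW1940 and 258 ± 47.2 in LT186 (log2 fold change 0.16, limma adjusted p 0.657). Of 10 pan-neuronal genes 8 were tested, with 1 higher at an unadjusted p under 0.05 and a median log2 fold change of 0.12. It was egl-21, named after its values were seen, at 446 ± 22.1 in BW1940 and 354 ± 66.1 in LT186. Of 13 measured genes of the sensory cilium 10 were tested, with none past a p of 0.05 and a median of 0.10.

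The families also varied together from array to array. The mean log2 value of all 177 str genes, those near the floor included, was 4.38, 4.13, 4.29, 4.26 and 4.37 in BW1940 and 4.16, 4.23, 4.09, 4.30, 4.16 and 4.22 in LT186. BW1940 replicate 2 lay under all LT186 arrays but replicate 3, and the other BW1940 arrays under none but LT186 replicate 4. The mean of the 40 srj genes was 4.55, 4.15, 4.38, 4.31 and 4.42 in BW1940 and 4.25, 4.37, 4.11, 4.44, 4.22 and 4.21 in LT186. The mean of the 57 srd genes was 4.42, 4.08, 4.37, 4.34 and 4.36 in BW1940 and 4.2, 4.34, 4.14, 4.41, 4.15 and 4.22 in LT186. In all 3 families BW1940 replicate 2 was the lowest BW1940 array and LT186 replicates 2 and 4 were the highest LT186 arrays.

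The count of genes near the floor moved in the same way. The share of the 274 genes under 10 on an array was 51.5%, 70.8%, 58.0%, 62.4% and 55.8% in BW1940. In LT186 it was 66.4%, 60.9%, 70.8%, 56.2%, 66.4% and 67.2%. That of all genes lay between 23.5% and 28.9%. For srh the share was lowest on BW1940 replicate 1, at 51.3%, and highest on LT186 replicate 3, at 68.1%. For sri those arrays were again the extremes, at 53.3% and 75%. For the further chemoreceptor families it was lowest on BW1940 replicate 1 (54.7%) and highest, at 74.5%, on BW1940 replicate 2 and LT186 replicate 3. The movement between arrays was thus shared with other receptor families. The highest value of a tested receptor gene was on BW1940 replicate 5 for 47 genes (32.0%) and on BW1940 replicate 1 for 41 (27.9%), against 12.7% and 15.2% of all tested genes. The lowest was on BW1940 replicate 2 for 44 genes (29.9%) and on LT186 replicate 3 for 39 (26.5%), against 13.4% and 10.5%. The msp score was 8.96, 10.45, 9.56, 10.74 and 10.79 in BW1940 and 10.45, 7.03, 10.66, 6.49, 10.94 and 10.71 in LT186. It was lowest on LT186 replicates 4 and 2 and then on BW1940 replicate 1, but it was high on BW1940 replicates 2 and 5, which lay at opposite ends for the receptors. The part of sperm content in these array differences was not tested.

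**Figure D4:**
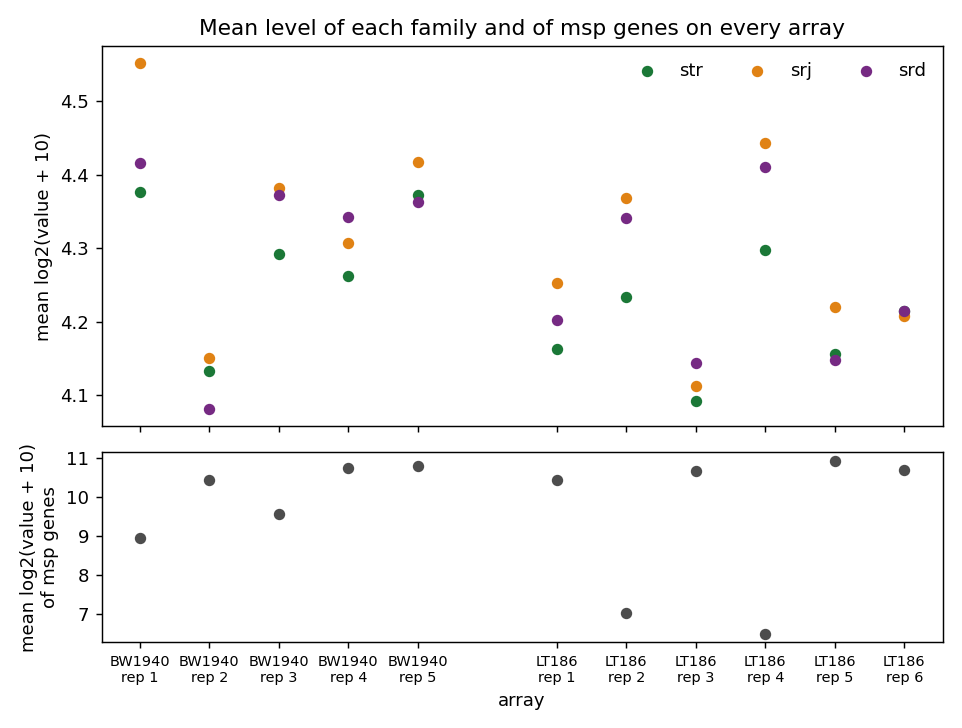
Mean log2(value + 10) of all 177 str, 40 srj and 57 srd genes (upper panel) and of 23 msp genes (lower panel) on each array, BW1940 left and LT186 right. The families move together, with str between 4.09 and 4.38, and the msp genes fall to 7.03 and 6.49 on LT186 replicates 2 and 4.

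The spread within a strain is on the log2(value + 10) scale, which narrows it for genes as dim as most receptors. The median SD of the log2 value within a strain was 0.27 for the 147 genes (0.28 for str, 0.26 for srj and 0.27 for srd), against 0.31 for all genes tested. Only 9 of them (6.12%) spanned more than 2 log2 units over the arrays, against 14.5% of all genes. The widest ranges are described next, without a test, because the genes were chosen for them.

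str-260 was the brightest of all, at 287, 64, 197, 127 and 307 in BW1940 and 85.8, 253, 47.5, 231, 116 and 118.6 in LT186. Arrays of either strain were high or low, and in LT186 replicates 2 and 4 were highest. Its log2 fold change of 0.45 had an adjusted p of 0.712 by limma. srj-10 gave 46.6, 8.72, 30.6, 36.8 and 19.4 in BW1940 and 26.8, 66.4, 20.7, 64.2, 21.9 and 19.8 in LT186. srj-15 gave 39.5, 7.80, 11.5, 15 and 25.5 in BW1940 and 11.2, 32.9, 3.03, 52.6, 3.78 and 18.2 in LT186. In both srj genes LT186 replicates 2 and 4 were the highest of their strain and BW1940 replicate 2 was the lowest of its own.

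srd-31 had the lowest log2 fold change of all tested receptor genes, and its arrays of each strain were far apart. It gave -5.79, -19.7, 35.1, 26.6 and -13.5 in BW1940 and 21, 48.7, -2.45, 47.7, 5.75 and 8.72 in LT186, so that 3 BW1940 arrays and 1 LT186 array were below 0. A probe set assigned to both srd-31 and srd-30 read 17.5 ± 6.33 in BW1940 and 15.2 ± 2.21 in LT186, without that range. srd-7 ran the other way, with 10.3, 45.0, 16.3, 42.3 and 29.3 in BW1940 and 34.4, 6.03, 49.4, 6.84, 22.7 and 27.2 in LT186. It was low on LT186 replicates 2 and 4 and on BW1940 replicates 1 and 3, the 4 arrays with the lowest msp score.

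Not all wide ranges followed these arrays. str-131 was highest on BW1940 replicate 4, with 17.5, 25.9, 15.5, 68.6 and 44.4 in BW1940 and 30.6, 13.1, 21.7, 17.2, 0.671 and 55.3 in LT186. str-144 was highest on BW1940 replicate 3, with 16.9, 52.8, 81.3, 24.6 and 16.6 in BW1940 and 24, 15.4, 8.73, 15.7, 39.2 and 11 in LT186. srd-36 did follow them in LT186, where replicates 2 and 4 were highest, and it was below 0 on BW1940 replicate 3 and LT186 replicate 5. It gave 25.9, 4.43, -2.0, 29.6 and 35.1 in BW1940 and 10.3, 24.1, 11.5, 24.7, -5.79 and 3.01 in LT186. None of the 3 passed a p of 0.05 before adjustment.

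**Figure D5:**
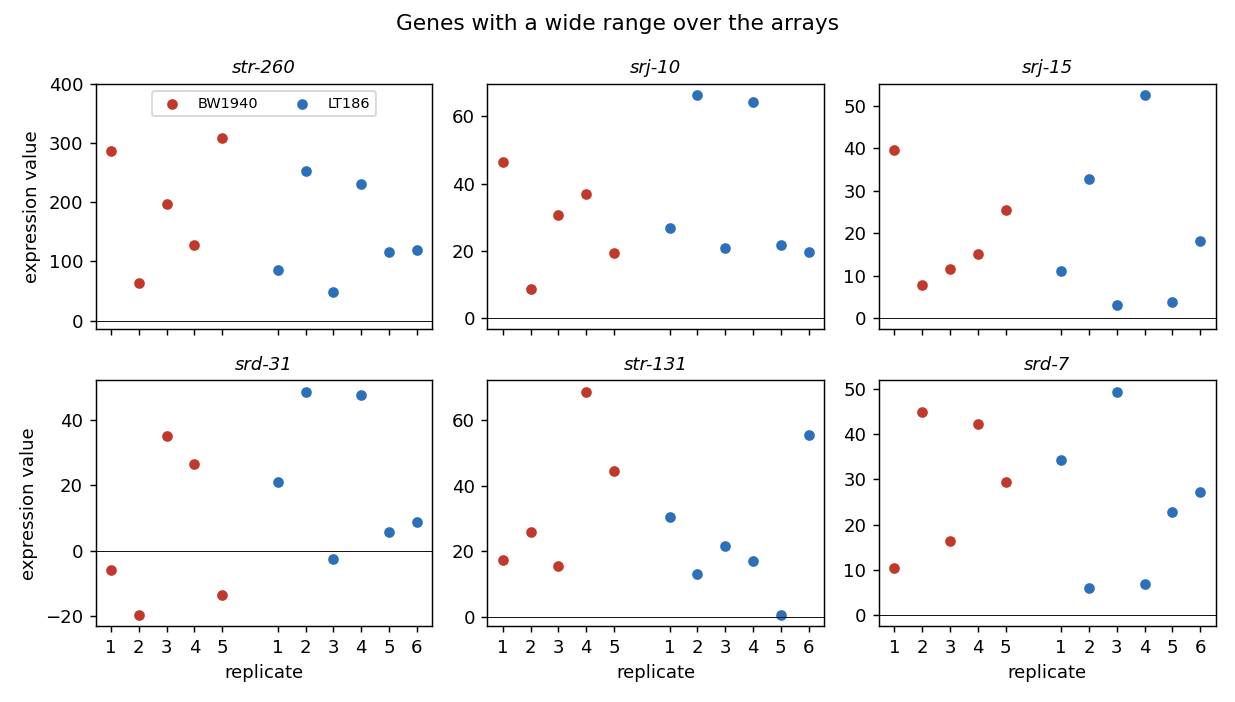
Expression values (vertical axes, linear) of 6 receptor genes with a wide range on each array, BW1940 replicates left and LT186 replicates right in each panel. LT186 replicates 2 and 4 are the highest LT186 arrays for str-260, srj-10, srj-15 and srd-31 and the lowest for srd-7.

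Over the 147 tested genes, LT186 replicates 2 and 4 were both above the other 4 LT186 arrays for 51 (34.7%), against 29.2% of all tested genes. Both ranked lowest for 9 (6.12%), against 22.4%. Values below 0 were set to 0 for these ranks, and the 9 include a tie at 0 with another LT186 array. With LT186 replicates 2 and 4 averaged into 1, str-9 was again the only receptor gene past the adjusted threshold, among 136 probe sets in all (0.723%). At an unadjusted p under 0.05, 9 genes were higher and 0 lower. The share of all probe sets at that threshold was not taken for this fit.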

How the data were processed

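Biotin-labelled RNA of L4 larvae was measured on Affymetrix whole-genome C. elegans arrays. The authors read the arrays with Microarray Suite 5 and made the deposited expression values, which are intensities on a linear scale, in Probe Profiler 1.3.11 with a global scaling to 100. The array annotation gives 1 gene symbol for 20766 of 22548 probe sets, several for 887 and none for 895, and only those with 1 symbol define a gene here. Chromosomes and neighboring genes are from the WBcel235 annotation. No coordinates are given, because the build behind the array's annotation was not found.

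Negative values were raised to 0, and log2 was taken after an offset of 10. The comparison took the 18801 probe sets that reached 10 on 2 or more of the 11 arrays, with lmFit and eBayes of limma 3.58.1 (R 4.3.3), no block and no covariate, and Benjamini-Hochberg adjustment over all of them at 0.05. Other steps used Python 3.11.15. Single genes were also tested with an exact permutation test (two-sided) over the 462 divisions of the arrays. The number of arrays limits the precision.

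The genes and lists were chosen with earlier results of these data known. Genes named are those past the adjusted threshold, those with no overlap between the strains, the textbook members, the members listed in the supplement of the study, and, in each family, the 3 of highest mean and the 3 of widest range. Any other gene or probe set picked for its values is said to be named after they were seen. Other settings were tried for the offset, filter, scaling, test, array weights and floor, with the replicate number as a block, with a sperm score, and with each array left out. The supplement's own fold changes and p-values were not used.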

Additional observations from a re-analysis of the deposited data

Results flagged for a closer look

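Of 25 named genes, each in both strains (50 groups of arrays), 2 had an array set apart from the rest of its strain by more than Dixon's 95% limit, where chance gives about 1 group in 20. Both fell on LT186 replicate 6. For srd-11 it was the lowest LT186 array, at 10.9, with the other 5 between 17.7 and 20.7. For srj-19, among the widest ranges of its family, it was the highest, at 32.1, with the other 5 between 4.24 and 11.5. srj-19 averaged 7.59 ± 6.84 in BW1940 and 11.6 ± 10.5 in LT186. Without this array the log2 fold change of srd-11 was 0.46 (limma adjusted p 0.205).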

How the results depend on the processing

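str-9 kept its direction in all alternatives and its call in all but the replicate block, with a log2 fold change between 0.92 and 1.05 over settings and between 0.88 and 1.08 over arrays left out. The labels do not say that arrays of the same number belong together. With the mean of each strain taken off, same-numbered arrays of the strains correlated at -0.69, -0.64, -0.30, -0.59 and 0.10. BW1940 replicate 1 correlated at 0.83 and 0.82 with LT186 replicates 2 and 4, all arrays of low msp score. Whether arrays of the same number shared a batch was not tested. With the number as a block, str-9 had a log2 fold change of 1.02 (limma adjusted p 0.209), 0 receptor genes and 5 probe sets in all passed the adjusted threshold (0.0266%), and 7 receptor genes were higher and 0 lower at an unadjusted p under 0.05. With the sperm score as a covariate 2 receptor genes passed, with srd-11 at 0.57 (limma adjusted p 0.0449), among 1709 probe sets (9.09%), and 21 were higher and 0 lower at an unadjusted p. Counts higher at an unadjusted p were 27 with array weights, 20 of all 274 without the filter and 7 with quantile normalization, which had 2 lower. With quantile normalization these were 4.76% and 1.36%, against 6.21% and 6.59% of all probe sets. Past the adjusted threshold were 443 probe sets with array weights and 416 without the filter. Outside the main fit and the scalings, the share of all probe sets at an unadjusted p was not taken. Counts at an unadjusted p in those settings thus have no background beside them. An ordinary t-test on the same log2 values gave 14 higher and 1 lower, with 381 probe sets past the adjusted threshold. The authors' own modified t-test was not rerun. The count lower was 0 with LT186 replicates 2 and 4 averaged, the filter of 20 on 5 arrays, the offset of 20 or a trended robust prior. With an array left out, 8 to 22 receptor genes were higher and 0 to 1 lower, and the 22 came without BW1940 replicate 2.

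The median for str was 0.070 without the filter, over all 177 genes. That of srj was -0.0067 with quantile normalization and between -0.01 and 0.16 with an array left out, the lowest without BW1940 replicate 1. The share near the floor for str was 43.5% with a mean under 5, 80.8% under 20 and 51.4% for values under 10 on at least 10 arrays. For srj these were 25%, 80% and 35%, and for srd 33.3%, 77.2% and 38.6%. Single genes without a call turned sign in some settings. srj-10 was at 0.0065 and srd-7 at -0.12 with array weights, srd-7 at -0.051 with the sperm score, and srd-53 at -0.00087 with quantile normalization and -0.071 with the block. With an array left out srj-15 lay between -0.089 and 0.37 and srd-53 between -0.11 and 0.15. The cause of these changes was not tested.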

Other observations

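A further 26 probe sets were assigned by the annotation to several genes that include a str, srj or srd gene, and are given here as values of the probe sets. Of these 16 were tested, none passed the adjusted threshold, and 3 were higher in BW1940 at an unadjusted p under 0.05. Those 3 are named after their values were seen. A probe set of srd-72 and srd-71 averaged 18.8 ± 7.93 in BW1940 and 8.92 ± 2.18 in LT186 (log2 fold change 0.57, limma adjusted p 0.143). Another probe set of the same genes averaged 13.6 ± 7.53 in BW1940 and 11.2 ± 5.93 in LT186 (log2 fold change 0.13, limma adjusted p 0.880). The set of srd-60 and srd-73 averaged 10.01 ± 2.66 in BW1940 and 6.07 ± 2.46 in LT186, and that of Y19D10A.2 and str-258 averaged 16.4 ± 2.50 in BW1940 and 11.8 ± 2.86 in LT186.

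Of the 6 genes annotated as pseudogenes, named here after their values were seen, 3 passed the filter, and some were brighter than most receptor genes. str-183 gave 35.3, 54, 34.2, 44.3 and 48.2 in BW1940 and 38.7, 20.3, 36.3, 16.6, 39.3 and 36.7 in LT186, lowest on LT186 replicates 2 and 4. srj-16 gave 38.7, 26.8, 35.8, 23.0 and 35.4 in BW1940 and 23.5, 17.9, 19.99, 23.6, 30.7 and 28.9 in LT186. str-224 was below 0 on every array, with a mean of -20.7.

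Another 3 genes had a pair of probe sets of their own. For srj-14 they averaged 62.2 and 22.7 in BW1940 and 53.4 and 19.6 in LT186, so that the level of a gene differed by probe set while the strains stood in the same order. For str-16 they averaged 10.3 and 3.65 in BW1940 and 10.4 and 1.5 in LT186, and for str-159 they averaged 7.46 and 6.16 in BW1940 and 6.97 and 7.88 in LT186.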
